A study of Homo sapiens with 12 samples.

Results

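Genes that copy the genome in S phase were followed in MV-4-11, an established human acute myeloid leukaemia line that carries a FLT3 internal tandem duplication and a KMT2A fusion. The 49 genes were taken by symbol from a list of replication genes, which was drawn up with earlier results of these data known: the origin recognition and licensing factors, the MCM helicase and its activators, the replicative polymerases, the sliding clamp and its loader, the enzymes that join lagging-strand fragments, the makers of deoxynucleotides, fork protection factors, chromatin assembly factors and the transcription factor E2F1. All 49 were among the 20036 genes of the expression table. Of these, 48 reached 1 FPKM or more in 3 or more libraries (of 12) and were tested. POLA2, the accessory subunit of DNA polymerase alpha, did not pass that filter.

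RNA was sequenced in 4 groups of 3 libraries, each labelled as wild type and as the same line of bone marrow origin. The groups were DMSO (the solvent), HPA-12 (a ceramide analogue that inhibits the ceramide transfer protein CERT, here the (1R,3S) isomer), crenolanib (a kinase inhibitor that blocks FLT3), and the combination of both compounds. Treatment lasted 48 h, while neither the doses nor the time of the DMSO cells are given in the sources used here. The labels number the libraries without naming cultures. P-values therefore describe variation among these libraries, possibly technical only. The model is limited to 1 cell line.

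As background, replication is licensed in G1, when the origin recognition complex, CDC6 and CDT1 load the MCM2-7 ring onto DNA. In S phase the kinase CDC7 with its partner DBF4, together with MCM10, CDC45 and the GINS complex, turns the ring into an active helicase. Polymerases alpha, delta and epsilon then copy the strands, with PCNA as clamp and RPA on the exposed single strands. Many of these genes are targets of E2F transcription factors, which become free to act when cyclin-dependent kinases phosphorylate the retinoblastoma protein, and their transcript levels are high in dividing cells.

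The combination libraries stood apart before any gene was compared. The FPKM values resolved into whole reads, which gave 13572503 to 15985425 reads per library in DMSO, 12055586 to 12783459 in HPA-12, 10053249 to 10212954 in crenolanib and 4399889 to 5070549 in the combination. Among genes with 1 to 40 reads, the commonest read number was 1 in each DMSO and HPA-12 library, 3 or 4 with crenolanib and 10 or 11 in the combination. Mitochondrially encoded genes held 19.8% of the FPKM in DMSO, 21.6% under HPA-12, 36% under crenolanib and 62.2% in the combination. The 15 erythroid markers summed to between 78.5 and 85.3 FPKM in DMSO, 218 and 225 with HPA-12, 4390 and 4660 with crenolanib, and 27600 and 28100 in the combination, and none of the 15 was below 1 FPKM in all libraries. HBB averaged 70, 197, 4030 and 23800 FPKM in the 4 groups, and HBA2 is listed at 0 with HPA-12. Of the 12 lymphoid markers and of the 12 stromal, endothelial and epithelial markers, 4 each were below 1 FPKM in all libraries. None of the 12 myeloid markers was below 1 FPKM in all libraries. They summed to between 1150 and 1170 FPKM in DMSO, 595 and 603 with HPA-12, 1030 and 1050 with crenolanib and 716 and 754 in the combination. Against DMSO 6 were lower and 5 higher with HPA-12, 7 lower and 4 higher with crenolanib, and 8 lower and 2 higher in the combination. Of all tested genes, 34.6%, 39.4% and 49.6% were lower in these comparisons, and 43.2%, 36.1% and 12.3% higher. CD33 averaged 28.1, 18, 13.2 and 6.29 FPKM in the 4 groups, FLT3 94.6, 156, 130 and 58.4, and MPO 391, 15.9, 344 and 429. In RNA from whole cultures, fewer cells of a type and less RNA per cell cannot be told apart, and the part of these differences in the results below was not tested.

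The members were measured with very different precision in the 4 groups. Their median depth fell from 513.3 reads per library in DMSO to 368.0 in HPA-12, 310.7 in crenolanib and 120.7 in the combination. Reads are not known to be separate molecules, and in the combination, where the commonest low read number was 10 or 11, how many molecules stood behind 120.7 reads was not measured. The median ratio of SD to mean over the 3 libraries was 5.76% in DMSO, 7.14% under HPA-12, 9.3% under crenolanib and 29% in the combination. This ratio passed 25% for 0, 1, 3 and 26 members. The variance between libraries, divided by the mean read number, had a median over members of 2.18, 2.05, 4.43 and 13.12, against 1 for counting error alone. Each comparison was therefore fitted on the 6 libraries it concerns, so that the spread of the combination libraries enters only the comparisons that use them.

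**Figure D1:**
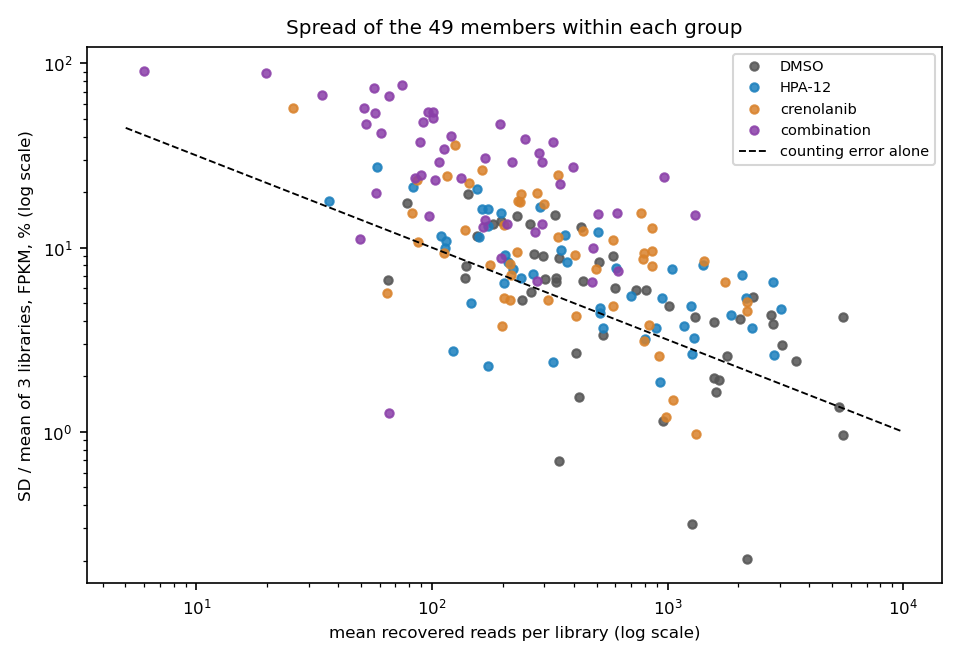
Spread of each of the 49 members within each group (SD divided by mean FPKM of 3 libraries, in percent, log axis) against its mean number of recovered reads (log axis); each point is a gene in a group, and the dashed line is counting error alone. The combination points lie mostly above the line, with a median of 29%, while the DMSO points have a median of 5.76%.

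Upstream sequence of the members is shown first, because the E2F connection is the property that most of these genes are known to share. The RefSeq promoter table (GRCh38.p14) held 43 of the 49 members, without MCM4, MCM5, GINS4, POLD3, RPA2 and RPA3. The letters TTTCCCGC or TTTGGCGC, a pair of forms of the E2F site, were searched on both strands in the 250 bases before each listed start. They were found in 15 of 43 members (34.9%), against 645 of 27305 genes of the table (2.36%). The CCAAT letters, bound by NF-Y, were found in 26 of the 43 members (60.5%) and in 37.0% of all genes. TTTGAA, the letters of the CHR element of mitotic genes, were found in 1 of 43 members (2.33%) and in 16.1% of all genes. A match describes letters only and is not a site of binding. The 120 bases before a listed start are printed below, on the strand of the gene, for E2F1 and UHRF1, which fell in each treatment, CDT1, which went in opposite directions, PCNA, the clamp, POLD2, which fell most with HPA-12, and RRM2, which rose in the combination. The last 2 hold no such letters in the stretch shown. UHRF1 has 3 listed starts, and PCNA and RRM2 have 2 each. The start with the most E2F letters in its 250 bases was taken, and the other starts of UHRF1 and PCNA had none. Capitals mark the E2F letters on either strand; the coordinates are chr20:33686386-33686505 (minus strand) for E2F1, chr19:4909381-4909500 (plus strand) for UHRF1, chr16:88803669-88803788 (plus strand) for CDT1, chr20:5126623-5126742 (minus strand) for PCNA, chr7:44123549-44123668 (minus strand) for POLD2, chr2:10122619-10122738 (plus strand) for RRM2.
E2F1: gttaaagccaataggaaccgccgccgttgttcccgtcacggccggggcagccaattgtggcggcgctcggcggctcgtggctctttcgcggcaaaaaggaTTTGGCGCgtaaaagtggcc
UHRF1: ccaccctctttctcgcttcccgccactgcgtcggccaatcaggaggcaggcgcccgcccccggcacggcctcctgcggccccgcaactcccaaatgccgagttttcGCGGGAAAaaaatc
CDT1: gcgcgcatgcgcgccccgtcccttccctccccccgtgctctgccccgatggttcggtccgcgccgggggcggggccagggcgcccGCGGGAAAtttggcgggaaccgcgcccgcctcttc
PCNA: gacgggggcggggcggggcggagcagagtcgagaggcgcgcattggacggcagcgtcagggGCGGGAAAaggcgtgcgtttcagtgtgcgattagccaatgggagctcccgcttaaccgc
POLD2: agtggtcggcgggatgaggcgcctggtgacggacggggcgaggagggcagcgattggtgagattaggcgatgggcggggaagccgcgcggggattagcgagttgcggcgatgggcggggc
RRM2: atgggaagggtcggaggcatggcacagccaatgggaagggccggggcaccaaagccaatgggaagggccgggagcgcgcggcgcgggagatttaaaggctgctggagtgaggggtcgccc

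Compared with DMSO, 26 of the 48 tested members (54.2%) were lower with HPA-12 and 9 were higher. Over all 11149 genes tested, 34.6% were called lower and 43.2% higher. The median member changed by -0.24 on the log2 scale of FPKM + 1, while the median of all tested genes was 0.09. All log2 fold changes below are on this scale, which understates changes of genes with low FPKM, and a gene is said to have fallen or risen when its limma p-value, adjusted by Benjamini-Hochberg over all tested genes, was below 0.05. The largest falls were those of POLD2, UHRF1, MCM2, MCM10, E2F1 and MCM6, and the largest rises those of CDT1, RPA2, CHAF1A, ORC2, RFC5 and PRIM1. PRIM1 lost its call without HPA-12 library 3 (0.29, adjusted p = 0.0517). When all 12 libraries shared 1 estimate of the spread, 17 members were lower and 3 higher, and ORC2, POLD3, CHAF1A, PRIM1, PRIM2 and RFC4 were the 6 rises that no longer passed. The 9 falls that no longer passed were those of GINS2, POLA1, POLE, RFC2, RFC3, FEN1, RRM2, DTL and CHAF1B. POLE, RRM2 and DTL no longer passed with an equal sum without mitochondrial genes, nor RFC4 with median ratios.

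With crenolanib 27 members (56.2%) were lower than in DMSO and 5 were higher, against a background of 39.4% lower and 36.1% higher. The median member changed by -0.36, and the median of all genes was -0.04. MCM2, POLD2, UHRF1, POLD1, MCM3 and MCM7 fell most, and the 5 that rose were WDHD1, CDC7, DBF4, PRIM1 and CLSPN. Those rises were small: CLSPN lost its call when any of 5 libraries was left out (adjusted p 0.0588 to 0.183; crenolanib library 1 was the exception), DBF4 without DMSO library 3 or crenolanib library 2 or 3 (0.0564 to 0.0713), and PRIM1 without DMSO library 1 (0.0543). The number raised was 3 without DMSO library 1, DMSO library 3 or crenolanib library 3. With all 12 libraries in 1 fit none of the 5 passed in limma (adjusted p of 0.0514 for WDHD1, 0.109 for CDC7, 0.362 for DBF4, 0.379 for PRIM1 and 0.166 for CLSPN), and 21 members were lower. The 6 falls that no longer passed in that fit were those of GINS1, GINS2, GINS3, FEN1, RPA2 and CHAF1A. With an equal sum without mitochondrial genes 8 were higher, and CDT1, GINS1, GINS3 and RPA2 no longer passed as lower (adjusted p of 0.0724, 0.0981, 0.0523 and 0.0605).

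In the combination, 25 members (52.1%) were lower than in DMSO and 5 were higher, where 49.6% of all genes were lower and 12.3% higher. The share of members that fell was thus close to that of all genes, and the median member, at -0.53, lay near the median gene, at -0.62. A fall of over 1 log2 unit was called for 14 members, among them 5 of the 6 MCM2-7 subunits, and for 33.2% of all genes. The number lowered was 16 without DMSO library 1 or DMSO library 2. The number raised was 2 without either of these and 1 without DMSO library 3, and 8 with all 12 libraries in 1 fit.

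The median of all genes tested moved by 0.5 when FPKM was rescaled by median ratios over genes found in every library, from -0.62 to -0.12 in combination vs DMSO. With that scaling, 9 members were lower and 12 higher in the combination, and the median member changed by -0.03. The median member lay 0.09 above the median gene as deposited and 0.08 above it rescaled. For HPA-12 vs DMSO and crenolanib vs DMSO the same rescaling left the members -0.33 and -0.32 from the median gene, as in the deposited values. Of the 30 members called in combination vs DMSO, 5 turned in direction with median ratios, none of them passing then: MCM7 (0.23), PCNA (0.14), RFC5 (0.1), LIG1 (0.09) and RRM1 (0.25). No called member turned in HPA-12 vs DMSO, crenolanib vs DMSO or crenolanib vs HPA-12 under the 2 other scalings, 3 did in combination vs crenolanib (RPA1, RRM1 and UHRF1), 4 in combination vs HPA-12 (MCM3, GINS4, POLD1 and RRM1) and 3 in the interaction (MCM5, RPA1 and RRM1), each with median ratios. Of the 25 falls in combination vs DMSO, 16 did not pass with median ratios and 7 did not with an equal sum without mitochondrial genes. The 7 were MCM7, GINS3, POLD3, PCNA, RFC5, RRM1 and E2F1. The level of a member in the combination thus depends on the total it is measured against.

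**Figure D2:**
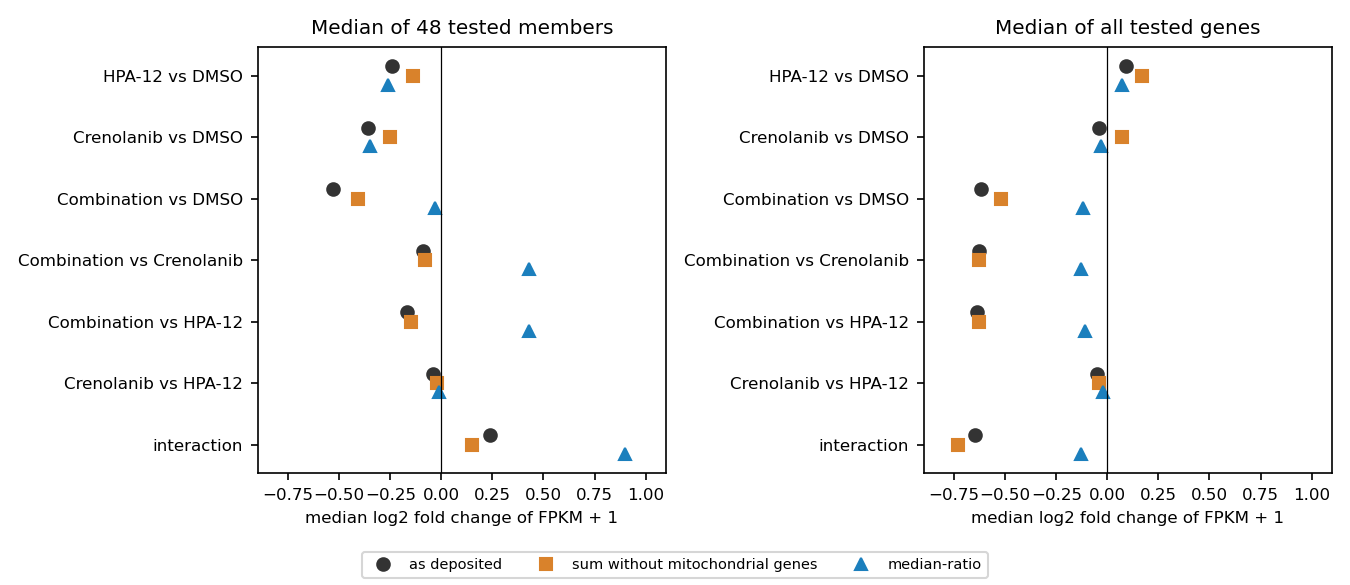
Median log2 fold change of FPKM + 1 over the 48 tested members (left) and over all 11149 tested genes (right) in the 6 comparisons and the interaction, with FPKM as deposited (circles), rescaled to an equal sum without mitochondrial genes (squares) or by median ratios (triangles). The 2 comparisons of crenolanib or HPA-12 with DMSO keep their members' median below 0 in each scaling, while combination vs crenolanib goes from -0.09 to 0.43.

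In FPKM, the summed level of the 49 members was 907, 890 and 868 in the DMSO libraries, 695, 691 and 701 with HPA-12, 596, 595 and 603 with crenolanib and 505, 484 and 544 in the combination. The 4 groups did not overlap. The means were 889 ± 19.5, 696 ± 5.03, 598 ± 4.7 and 511 ± 30.3 (SD, n = 3). With median ratios the means became 790, 607, 535 and 736, so the place of the combination changed while the order of the other groups did not. A sum over FPKM is led by the abundant members MCM7, MCM2, PCNA and RPA2.

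The patterns over the 3 treatments were not uniform. Falls in each of the 3 comparisons with DMSO, which share the DMSO libraries, were seen for 15 members: CDC6, MCM2, MCM3, MCM4, MCM6, MCM7, GINS4, POLD1, POLD2, PCNA, RFC2, FEN1, LIG1, UHRF1 and E2F1. Of these 15, CDC6, MCM3, MCM6, MCM7, PCNA, FEN1, LIG1 and E2F1 did not pass in the combination with median ratios. With all 12 libraries in 1 fit RFC2 and FEN1 did not pass with HPA-12, nor did FEN1 with crenolanib. Of all tested genes, 34.6% were lower with HPA-12, 39.4% with crenolanib and 49.6% in the combination. The share of all genes lower in all 3 was not counted, so whether 15 members exceeds it is not known. CDT1, RPA2 and CHAF1A were raised by HPA-12 but lowered by crenolanib and by the combination, although the crenolanib calls of CDT1 and RPA2 ended with an equal sum without mitochondrial genes and the combination calls of CDT1 and CHAF1A with median ratios. With all 12 libraries in 1 fit the crenolanib calls of RPA2 and CHAF1A ended, as did the HPA-12 rise of CHAF1A. RRM2 fell with HPA-12 and rose in the combination, and ORC6 and TYMS passed in none of the 3.

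**Figure D3:**
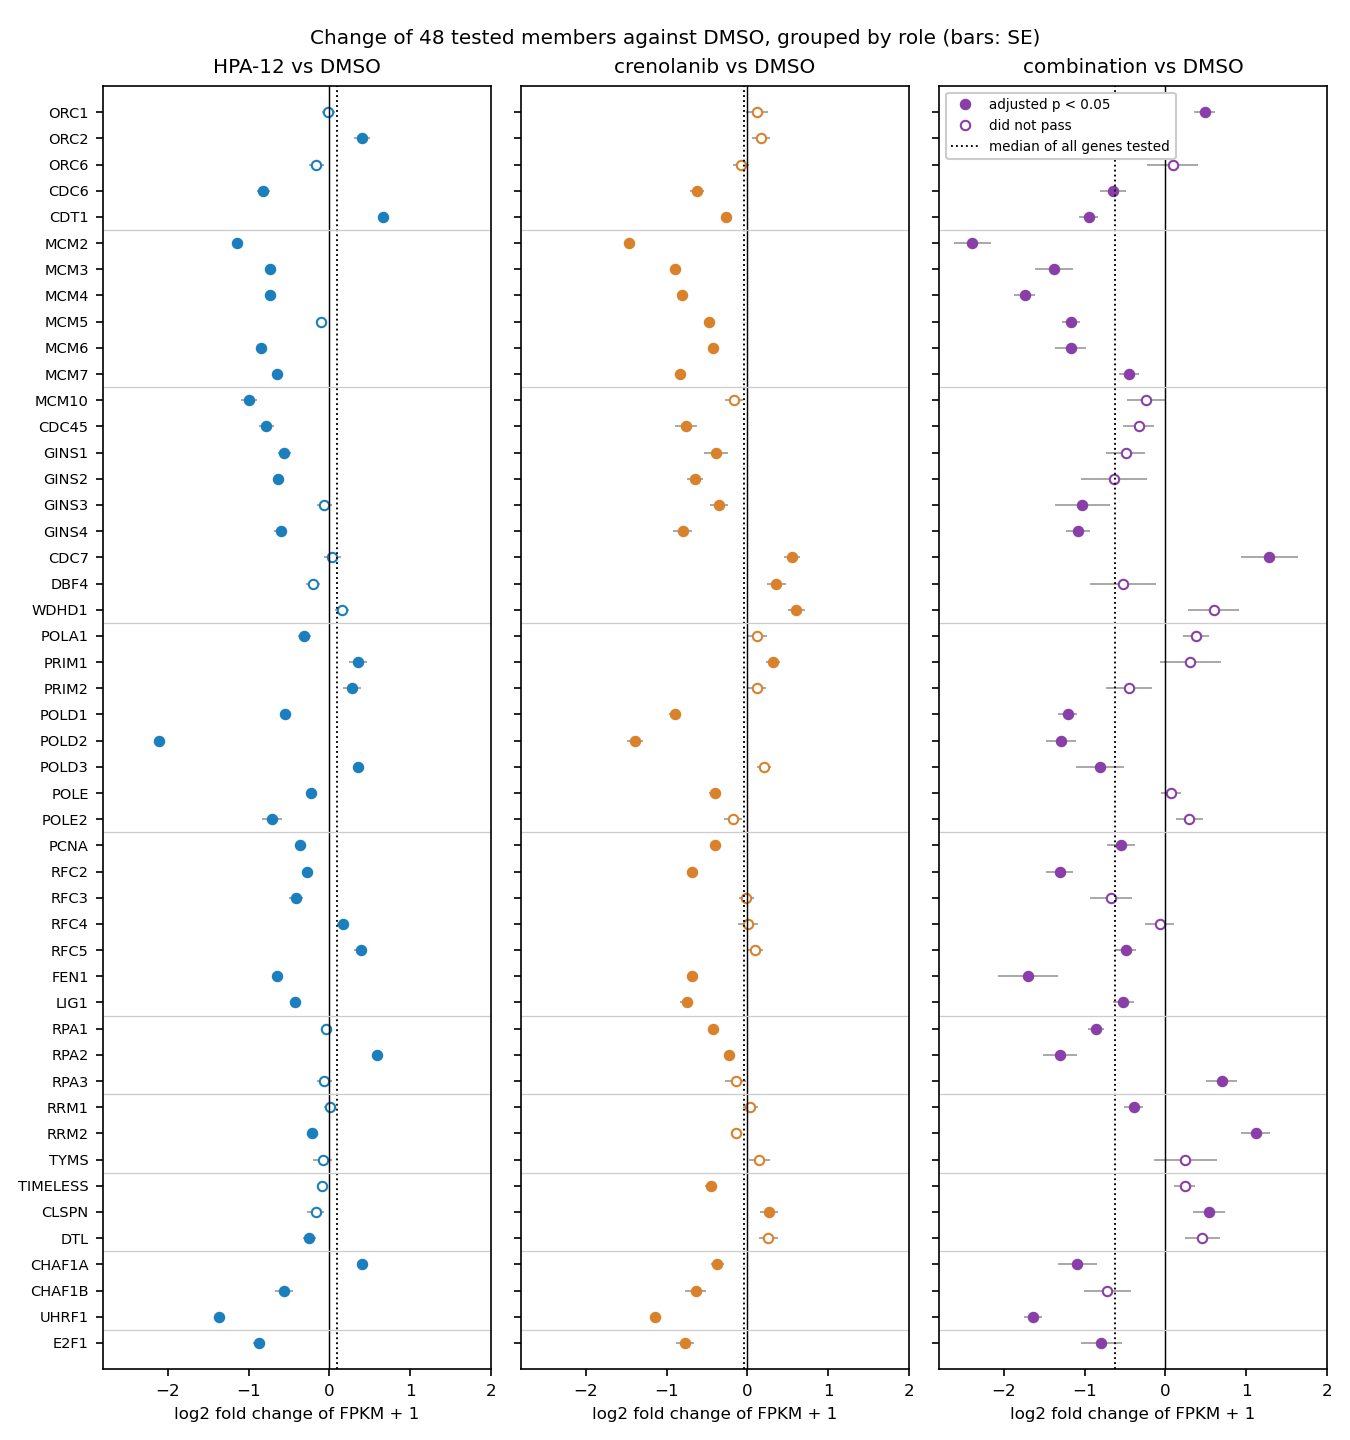
Log2 fold change of FPKM + 1 against DMSO with its SE for the 48 tested members, ordered by role, with HPA-12 (left), crenolanib (middle) and the combination (right); filled points passed at an adjusted p below 0.05, open points did not, and the dotted line is the median of all tested genes. The MCM2-7 subunits lie left of 0 in each panel (with median ratios MCM7 is at 0.23 in the combination), and the error bars are longest in the combination.

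Among the licensing factors, CDC6, the ATPase that helps to load the ring, fell in each treatment. It was at 6.35, 7.35 and 6.43 FPKM in the DMSO libraries, 3.18, 3.65 and 3.24 with HPA-12, 4.23, 4.13 and 3.69 with crenolanib and 4.11, 3.27 and 4.38 in the combination. The 3 treated groups lay wholly below DMSO. The log2 fold changes were -0.82 (SE 0.08, adjusted p = 1.9e-06) with HPA-12, -0.62 (SE 0.09, adjusted p = 1.7e-04) with crenolanib and -0.65 (SE 0.16, adjusted p = 0.00983) in the combination. The combination call ended without DMSO library 2 (-0.59, adjusted p = 0.0553) and with median ratios (-0.07, adjusted p = 0.731).

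CDT1, which brings MCM2-7 to the origin and is removed in S phase, was the most raised member with HPA-12. Its FPKM was 26.8, 25 and 24.5 in DMSO, 45, 39.6 and 38.9 with HPA-12, 20.6, 22.3 and 20.5 with crenolanib and 14.5, 11.2 and 12.6 in the combination. HPA-12 lay wholly above DMSO, and both groups with crenolanib lay below it. The log2 fold changes were 0.67 (SE 0.06, adjusted p = 9.4e-07) with HPA-12, -0.26 (SE 0.06, adjusted p = 0.00358) with crenolanib, where the call ended when mitochondrial genes were left out of the total (-0.13, adjusted p = 0.0724), and -0.95 (SE 0.12, adjusted p = 6.4e-04) in the combination, where it ended with median ratios (-0.29, adjusted p = 0.0942).

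The 3 measured subunits of the origin recognition complex differed from each other. ORC1, the subunit that is made anew in each cycle, stood at 9.72 ± 0.642 FPKM (mean ± SD, n = 3) in DMSO, 9.66 ± 0.81 under HPA-12, 10.9 ± 2.7 under crenolanib and 14.2 ± 1.9 in the combination. It passed only in the combination among the comparisons with DMSO (log2 fold change 0.49, SE 0.13, adjusted p = 0.0166), and the call ended without DMSO library 1 (0.45, adjusted p = 0.0715) or DMSO library 3 (0.5, adjusted p = 0.0607). ORC2, a core subunit, was at 5.06 ± 0.659 FPKM in DMSO, 7.03 ± 0.85 under HPA-12, 5.83 ± 0.664 under crenolanib and 2.2 ± 0.924 in the combination. It rose with HPA-12 (log2 fold change 0.41, SE 0.1, adjusted p = 0.00261) and fell in the combination, where the libraries held 1.13, 2.74 and 2.72 FPKM and lay wholly below DMSO. Its rise ended with all 12 libraries in 1 fit (adjusted p = 0.122) and its fall with median ratios (-0.45, adjusted p = 0.242). ORC6, the smallest subunit, was at 4.32 ± 0.4 FPKM in DMSO, 3.77 ± 0.243 under HPA-12, 4.03 ± 0.326 under crenolanib and 5.05 ± 2.76 in the combination, with overlapping groups.

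Most subunits of the MCM2-7 ring fell in each treatment. With HPA-12, 5 of its 6 subunits fell, and with crenolanib and in the combination all 6 did, except that with median ratios MCM7 lay above DMSO in the combination (0.23) and MCM3 and MCM6 no longer passed (adjusted p of 0.0516 and 0.0712), and with an equal sum without mitochondrial genes MCM7 stayed below DMSO but did not pass (-0.31, adjusted p = 0.052). The medians were -0.74, -0.82 and -1.28 as deposited. Of all tested genes, 34.6%, 39.4% and 49.6% fell with HPA-12, crenolanib and the combination. MCM2 was at 77.4, 79.5 and 78.6 FPKM in the DMSO libraries, 38, 33.1 and 34.5 with HPA-12, 27.7, 27.3 and 27.8 with crenolanib and 10.6, 12.7 and 21.1 in the combination. The 4 groups followed each other without overlap. MCM2 changed on the log2 scale by -1.14 (SE 0.05, adjusted p = 2.4e-09) with HPA-12, by -1.47 (SE 0.04, adjusted p = 8.6e-09) with crenolanib and by -2.39 (SE 0.23, adjusted p = 1.9e-04) in the combination. With median ratios the last value was -1.73 and still passed.

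MCM5 was the subunit that HPA-12 did not lower beyond the spread between libraries. It was at 34.1, 33 and 32.6 FPKM in the DMSO libraries, 33.1, 29.1 and 30.6 with HPA-12, 24.3, 22.1 and 25 with crenolanib and 14.8, 12.6 and 15.3 in the combination. HPA-12 overlapped DMSO, and the other groups did not. The log2 fold changes were -0.1 (SE 0.06, adjusted p = 0.111) with HPA-12, where it passed without HPA-12 library 1 (-0.15, adjusted p = 0.017), -0.47 (SE 0.06, adjusted p = 7.7e-05) with crenolanib and -1.17 (SE 0.11, adjusted p = 1.4e-04) in the combination.

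The other subunits fell in all 3 comparisons. MCM3 was at 43.9 ± 2.38 FPKM in DMSO, 25.8 ± 0.97 under HPA-12, 23.3 ± 1.85 under crenolanib and 16.8 ± 5.5 in the combination. MCM4 was at 39 ± 0.375 FPKM in DMSO, 23 ± 0.6 under HPA-12, 21.8 ± 0.985 under crenolanib and 11 ± 1.69 in the combination, with combination libraries at 10.8, 9.41 and 12.8, wholly below crenolanib. MCM6 was at 34.1 ± 1.4 FPKM in DMSO, 18.5 ± 0.989 under HPA-12, 25.1 ± 0.375 under crenolanib and 14.9 ± 4.35 in the combination, and its difference between the single compounds passed, with the lower level under HPA-12. MCM7, the most abundant subunit, was at 87.8 ± 3.71 FPKM in DMSO, 55.7 ± 2.58 under HPA-12, 48.9 ± 2.48 under crenolanib and 64.3 ± 9.7 in the combination; its combination libraries, at 73.2, 54 and 65.9, lay above those with crenolanib. In the combination MCM4 changed on the log2 scale by -1.74 (SE 0.13, adjusted p = 5.5e-05), and MCM3 changed on the log2 scale by -1.38 (SE 0.24, adjusted p = 0.00249).

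Of the 9 factors that turn the ring into a helicase, 5 (55.6%) fell with HPA-12 and none rose, where 34.6% of all genes were lower and 43.2% higher. With crenolanib 5 fell and 3 (33.3%) rose, where 39.4% of all genes were lower and 36.1% higher. MCM10, which helps to start unwinding, separated the 2 compounds. It was at 4.2, 4.85 and 3.59 FPKM in the DMSO libraries, 1.5, 1.82 and 1.51 with HPA-12, 3.44, 3.82 and 3.7 with crenolanib and 2.87, 2.64 and 5.02 in the combination. HPA-12 lay below DMSO and below both groups with crenolanib. The log2 fold change was -0.99 (SE 0.1, adjusted p = 2.6e-06) with HPA-12, and -0.16 (SE 0.11, adjusted p = 0.203) with crenolanib, where the groups overlapped.

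CDC45, the helicase cofactor, was at 9.74 ± 0.151 FPKM in DMSO, 5.29 ± 0.821 under HPA-12, 5.42 ± 1.43 under crenolanib and 7.73 ± 2.26 in the combination and fell with each single compound. Of the 4 GINS subunits, which clamp CDC45 to the ring, GINS1 was at 2.28 ± 0.131 FPKM in DMSO, 1.23 ± 0.0337 under HPA-12, 1.54 ± 0.555 under crenolanib and 1.4 ± 0.655 in the combination, and GINS2 at 7.22 ± 0.471 FPKM in DMSO, 4.31 ± 0.0985 under HPA-12, 4.24 ± 0.526 under crenolanib and 5 ± 3.81 in the combination. Both fell with each single compound (with crenolanib, GINS1 did not pass with an equal sum without mitochondrial genes, adjusted p = 0.0981) and did not pass in the combination, where GINS2 ranged from 2.14 to 9.32 FPKM over its 3 libraries. With all 12 libraries in 1 fit GINS2 did not pass with HPA-12 (adjusted p = 0.122) or crenolanib (0.102), nor did GINS1 with crenolanib (0.128). GINS3, at 2.44 ± 0.327 FPKM in DMSO, 2.3 ± 0.115 under HPA-12, 1.69 ± 0.181 under crenolanib and 0.791 ± 0.705 in the combination, did not pass with HPA-12 but fell in crenolanib and in the combination, where 1 library lists it at 0. Its recovered reads in the combination were 0, 35 and 24. The combination call of GINS3 ended with either other scaling. Its crenolanib call ended with an equal sum without mitochondrial genes and with all 12 libraries in 1 fit. GINS4 fell in all 3 comparisons, at 5.22 ± 0.139 FPKM in DMSO, 3.1 ± 0.258 under HPA-12, 2.61 ± 0.582 under crenolanib and 1.94 ± 0.217 in the combination.

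Both subunits of the kinase that fires origins rose with crenolanib, and neither passed with HPA-12. CDC7, the catalytic subunit, was at 4.31, 3.3 and 3.61 FPKM in the DMSO libraries, 3.2, 3.99 and 4.43 with HPA-12, 5.77, 5.71 and 6.27 with crenolanib and 5.62, 12.5 and 16.2 in the combination. HPA-12 overlapped DMSO, and both groups with crenolanib lay above it. It rose with crenolanib (log2 fold change 0.55, SE 0.1, adjusted p = 7.3e-04) and in the combination (log2 fold change 1.29, SE 0.35, adjusted p = 0.0167), where the call ended without DMSO library 2 (1.22, adjusted p = 0.0611), DMSO library 3 (1.27, 0.0526) or combination library 2 (1.18, 0.0549). DBF4, its activating partner, was at 3.62 ± 0.188 FPKM in DMSO, 3.04 ± 0.398 under HPA-12, 4.98 ± 0.892 under crenolanib and 2.6 ± 1.9 in the combination, and passed in no other comparison with DMSO. With all 12 libraries in 1 fit the crenolanib calls of CDC7 and DBF4 ended (adjusted p of 0.109 and 0.362). WDHD1, which ties polymerase alpha to the helicase, was at 1.68 ± 0.193 FPKM in DMSO, 1.99 ± 0.227 under HPA-12, 3.08 ± 0.116 under crenolanib and 3.31 ± 1.67 in the combination and changed on the log2 scale by 0.61 (SE 0.1, adjusted p = 3.2e-04) with crenolanib. In the combination the libraries of DBF4 spanned 0.692 to 4.49 FPKM and those of WDHD1 1.49 to 4.79, and neither passed.

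Of the 8 tested polymerase and primase genes, HPA-12 lowered 5 (62.5%) and raised 3 (37.5%). Of all genes, 34.6% were lower and 43.2% higher. Crenolanib lowered 3 (37.5%) and raised 1 (12.5%), where 39.4% of all genes were lower and 36.1% higher. POLD2, the small regulatory subunit of polymerase delta, had the largest fall of any member with HPA-12. It was at 27.3, 25.8 and 26.2 FPKM in the DMSO libraries, 5.25, 5.2 and 5.56 with HPA-12, 10.0, 7.91 and 10.7 with crenolanib and 7.72, 13.5 and 10.2 in the combination. No treated library reached the DMSO range, and HPA-12 lay below both groups with crenolanib. The log2 fold changes were -2.11 (SE 0.06, adjusted p = 2.8e-11) with HPA-12, -1.39 (SE 0.1, adjusted p = 1.6e-06) with crenolanib, and the combination was also lower than DMSO.

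Neither POLD1 nor POLD3, the other members from the same enzyme, was lowest with HPA-12. POLD1, its catalytic subunit, was at 30.4 ± 0.0621 FPKM in DMSO, 20.5 ± 0.993 under HPA-12, 15.8 ± 1.37 under crenolanib and 12.7 ± 1.7 in the combination and fell in all 3 comparisons. POLD3, which binds PCNA, was at 6.65 ± 0.223 FPKM in DMSO, 8.83 ± 0.687 under HPA-12, 7.9 ± 0.975 under crenolanib and 3.6 ± 1.74 in the combination. It rose with HPA-12 and fell in the combination, where its libraries held 3.76, 1.79 and 5.26 FPKM. The rise ended with all 12 libraries in 1 fit (adjusted p = 0.216) and the fall with median ratios (-0.25, adjusted p = 0.558). The fall also ended with an equal sum without mitochondrial genes.

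Polymerase epsilon, which copies the leading strand, was represented by its catalytic subunit POLE, at 10.0 ± 0.258 FPKM in DMSO, 8.41 ± 0.271 under HPA-12, 7.33 ± 0.189 under crenolanib and 10.6 ± 0.788 in the combination, and by POLE2, at 3.23 ± 0.222 FPKM in DMSO, 1.61 ± 0.441 under HPA-12, 2.76 ± 0.427 under crenolanib and 4.24 ± 0.84 in the combination. POLE fell with each single compound, although with HPA-12 it did not pass with an equal sum without mitochondrial genes (-0.13, adjusted p = 0.0873). POLE2 held 3.32, 2.98 and 3.4 FPKM in the DMSO libraries, 1.18, 2.06 and 1.6 with HPA-12, 2.26, 3.03 and 2.98 with crenolanib and 5.18, 3.55 and 3.99 in the combination. It fell with HPA-12 (log2 fold change -0.71, SE 0.12, adjusted p = 1.4e-04), and in the combination all its libraries lay above DMSO without passing (log2 fold change 0.3, SE 0.17, adjusted p = 0.175). With median ratios that value was 0.86 and passed (adjusted p = 0.00829).

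The polymerase alpha and primase complex, which lays down each primer, was expressed at low levels. POLA1 was at 1.54 ± 0.0107 FPKM in DMSO, 1.05 ± 0.0961 under HPA-12, 1.78 ± 0.353 under crenolanib and 2.32 ± 0.329 in the combination and fell with HPA-12. POLA2, untested, was at 0.977 ± 0.171 FPKM in DMSO, 0.529 ± 0.0942 under HPA-12, 0.456 ± 0.261 under crenolanib and 0.221 ± 0.2 in the combination, and 1 combination library lists it at 0. PRIM1, the catalytic primase subunit, was at 1.59 ± 0.106 FPKM in DMSO, 2.35 ± 0.498 under HPA-12, 2.23 ± 0.127 under crenolanib and 2.51 ± 1.7 in the combination, and rose with each single compound, by 0.36 (SE 0.11, adjusted p = 0.0107) on the log2 scale with HPA-12 and 0.32 (SE 0.09, adjusted p = 0.0125) with crenolanib. PRIM2 was at 3.17 ± 0.424 FPKM in DMSO, 4.09 ± 0.681 under HPA-12, 3.53 ± 0.47 under crenolanib and 2.18 ± 1.18 in the combination and rose with HPA-12, although its libraries overlapped those of DMSO.

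Among the clamp, its loader and the lagging-strand enzymes, 5 of 7 (71.4%) fell with HPA-12, 4 (57.1%) with crenolanib and 5 (71.4%) in the combination. Of all tested genes, 34.6%, 39.4% and 49.6% fell in these comparisons. PCNA was at 81.1, 76.3 and 75.4 FPKM in the DMSO libraries, 54.9, 63.3 and 62.4 with HPA-12, 56.6, 61 and 58.1 with crenolanib and 59.3, 40.1 and 62 in the combination. The treated groups lay below DMSO and overlapped each other. PCNA changed on the log2 scale by -0.36 (SE 0.06, adjusted p = 1.2e-04) with HPA-12, by -0.4 (SE 0.05, adjusted p = 5.9e-05) with crenolanib and by -0.55 (SE 0.17, adjusted p = 0.026) in the combination. The last call ended without DMSO library 1, 2 or 3 (-0.51, -0.56 and -0.57, with adjusted p of 0.0863, 0.0707 and 0.0635), and with median ratios the direction turned (0.14, adjusted p = 0.533). It also ended with an equal sum without mitochondrial genes (-0.41, adjusted p = 0.0717).

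FEN1, the nuclease that trims flaps of lagging-strand fragments, was at 30.2 ± 0.348 FPKM in DMSO, 18.9 ± 0.887 under HPA-12, 18.4 ± 0.78 under crenolanib and 9.56 ± 5.24 in the combination, and LIG1, the ligase that seals them, at 7.97 ± 0.335 FPKM in DMSO, 5.68 ± 0.181 under HPA-12, 4.34 ± 0.333 under crenolanib and 5.27 ± 0.347 in the combination. Both fell in all 3 comparisons. The FEN1 calls with HPA-12 and with crenolanib ended with all 12 libraries in 1 fit (adjusted p of 0.077 and 0.0577). The combination libraries of FEN1, at 14.7, 4.22 and 9.79 FPKM, lay below DMSO and differed widely from each other (log2 fold change -1.7, SE 0.37, adjusted p = 0.007), and its call ended with median ratios (-1.07, adjusted p = 0.0644).

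The clamp loader subunits split. RFC2 was at 22.8 ± 1.35 FPKM in DMSO, 18.8 ± 0.831 under HPA-12, 13.9 ± 0.718 under crenolanib and 8.73 ± 2.17 in the combination and fell in all 3 comparisons, with a log2 fold change of -1.31 (SE 0.17, adjusted p = 7.8e-04) in the combination. RFC3, at 14.1 ± 1.27 FPKM in DMSO, 10.4 ± 1.22 under HPA-12, 14 ± 1.28 under crenolanib and 8.85 ± 3.57 in the combination, fell with HPA-12. The HPA-12 calls of RFC2 and RFC3 ended with all 12 libraries in 1 fit (adjusted p of 0.12 and 0.114). RFC4, at 7.74 ± 0.528 FPKM in DMSO, 8.79 ± 0.211 under HPA-12, 7.9 ± 1.54 under crenolanib and 7.43 ± 1.74 in the combination, and RFC5, at 6.45 ± 0.438 FPKM in DMSO, 8.76 ± 0.845 under HPA-12, 7.01 ± 0.663 under crenolanib and 4.31 ± 0.0545 in the combination, rose with HPA-12, the second with a log2 fold change of 0.39 (SE 0.08, adjusted p = 8.5e-04). RFC5 fell in the combination, where its libraries held 4.34, 4.25 and 4.35 FPKM. That call ended with an equal sum without mitochondrial genes, and with median ratios the direction turned (0.1, adjusted p = 0.572).

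The 3 subunits of replication protein A, which covers single strands, moved apart. RPA2, the subunit that is phosphorylated under replication stress, was at 58.7, 57.8 and 56.5 FPKM in the DMSO libraries, 83.4, 86.8 and 92.6 with HPA-12, 49.8, 48.9 and 48.6 with crenolanib and 29.6, 24.7 and 16.1 in the combination. The groups did not overlap, with HPA-12 on top and the combination at the bottom. Its log2 fold change with HPA-12 was 0.59 (SE 0.05, adjusted p = 3.4e-07), and it fell with crenolanib, where the call ended with an equal sum without mitochondrial genes (-0.1, adjusted p = 0.0605), and in the combination. The crenolanib call of RPA2 also ended with all 12 libraries in 1 fit (adjusted p = 0.238). RPA1, the large subunit, was at 34.4 ± 1.48 FPKM in DMSO, 33.4 ± 1.23 under HPA-12, 25.6 ± 2.17 under crenolanib and 18.5 ± 1.21 in the combination, did not pass with HPA-12 and fell in the other groups. The combination call of RPA1 ended with median ratios. RPA3, the small subunit, was at 2.98 ± 0.238 FPKM in DMSO, 2.83 ± 0.285 under HPA-12, 2.65 ± 0.618 under crenolanib and 5.56 ± 1.33 in the combination and rose in the combination (log2 fold change 0.7, SE 0.19, adjusted p = 0.0179). That call ended without DMSO library 1, 2 or 3 (0.74, 0.66 and 0.7, with adjusted p of 0.0516, 0.0733 and 0.0656).

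Ribonucleotide reductase makes the deoxynucleotides, and its subunits moved apart in the combination. RRM2, the subunit whose level rises in S phase, was at 9.58, 9.63 and 9.58 FPKM in the DMSO libraries, 8.12, 8.3 and 8 with HPA-12, 8.77, 8.29 and 8.74 with crenolanib and 16.8, 22.9 and 27.7 in the combination. All combination libraries lay above every other library. The log2 fold changes were -0.21 (SE 0.06, adjusted p = 0.00648) with HPA-12, -0.14 (SE 0.06, adjusted p = 0.0722) with crenolanib and 1.12 (SE 0.18, adjusted p = 0.00188) in the combination. The fall with HPA-12 ended when mitochondrial genes were left out of the total (-0.11, adjusted p = 0.117), whereas the rise in the combination passed in each setting tried. RRM1, the large subunit, was at 13.2 ± 0.778 FPKM in DMSO, 13.3 ± 0.727 under HPA-12, 13.7 ± 1.51 under crenolanib and 9.85 ± 0.861 in the combination and fell in the combination, a direction that turned with median ratios (0.25). TYMS, which makes thymidylate, held 3.23, 4.81 and 4.25 FPKM in DMSO and 4.13, 9.94 and 2.87 in the combination, with overlapping groups (log2 fold change 0.25, SE 0.39, adjusted p = 0.594). With HPA-12 it averaged 3.8 ± 0.415 and with crenolanib 4.61 ± 0.433.

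Of the 3 fork protection and checkpoint genes, 1 (33.3%) fell with HPA-12, against 34.6% of all genes. With crenolanib 1 (33.3%) fell and 1 (33.3%) rose, against 39.4% and 36.1% of all genes. These shares were near those of all genes. TIMELESS, which steadies the fork, was at 18.6 ± 0.367 FPKM in DMSO, 17.5 ± 0.463 under HPA-12, 13.4 ± 1.25 under crenolanib and 22.4 ± 3.44 in the combination and fell with crenolanib. CLSPN, the adaptor for the kinase CHK1, was at 1.67 ± 0.246 FPKM in DMSO, 1.37 ± 0.223 under HPA-12, 2.21 ± 0.179 under crenolanib and 2.92 ± 0.695 in the combination and rose with crenolanib (log2 fold change 0.27, SE 0.11, adjusted p = 0.0465) and in the combination (log2 fold change 0.54, SE 0.2, adjusted p = 0.0471). The combination call ended without any 1 of 5 libraries (all but combination library 1), with an adjusted p between 0.0757 and 0.167. DTL, which guides CDT1 to destruction, was at 4.85 ± 0.425 FPKM in DMSO, 3.91 ± 0.269 under HPA-12, 6.03 ± 1.04 under crenolanib and 7.2 ± 2.22 in the combination and fell with HPA-12, a call that ended with an equal sum without mitochondrial genes (-0.16, adjusted p = 0.102).

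Among chromatin factors, UHRF1 had the largest fall with HPA-12. UHRF1, which carries DNA methylation through replication, was at 37.5, 39.1 and 36.2 FPKM in the DMSO libraries, 14.5, 13.4 and 14 with HPA-12, 18.3, 16.4 and 15.1 with crenolanib and 10.7, 10.5 and 13 in the combination. Each treated group lay wholly below DMSO. The log2 fold changes were -1.37 (SE 0.05, adjusted p = 4.4e-10) with HPA-12, -1.14 (SE 0.07, adjusted p = 7.8e-07) with crenolanib and -1.64 (SE 0.11, adjusted p = 4.5e-05) in the combination. CHAF1A and CHAF1B, subunits of the histone chaperone CAF-1, moved apart with HPA-12. CHAF1A was at 25.9, 25.8 and 25.1 FPKM in DMSO and 35.6, 35 and 32.8 with HPA-12, wholly above (log2 fold change 0.41, SE 0.05, adjusted p = 1.1e-05), and averaged 19.7 ± 2.49 with crenolanib and 12 ± 4.69 in the combination. Its rise ended with all 12 libraries in 1 fit (adjusted p = 0.088), and its combination call with median ratios (-0.44, adjusted p = 0.187). The fall of CHAF1A with crenolanib also ended with all 12 libraries in 1 fit (-0.37, adjusted p = 0.115). CHAF1B was at 4.02 ± 0.363 FPKM in DMSO, 2.43 ± 0.503 under HPA-12, 2.25 ± 0.552 under crenolanib and 2.2 ± 1.26 in the combination and fell with each single compound. Its HPA-12 call ended with all 12 libraries in 1 fit (adjusted p = 0.0825).

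E2F1 was at 16.3, 14.5 and 15.4 FPKM in the DMSO libraries, 8.61, 7.92 and 7.47 with HPA-12, 10.4, 7.5 and 8.1 with crenolanib and 5.41, 11.2 and 9.78 in the combination. All treated libraries lay below DMSO. It changed on the log2 scale by -0.87 (SE 0.07, adjusted p = 2.6e-07) with HPA-12, by -0.77 (SE 0.11, adjusted p = 1.5e-04) with crenolanib and by -0.79 (SE 0.25, adjusted p = 0.0279) in the combination. The last call ended without DMSO library 1, 2 or 3 (-0.75, -0.83 and -0.79, with adjusted p of 0.0921, 0.0696 and 0.0777) and with median ratios (-0.16, adjusted p = 0.649). It also ended with an equal sum without mitochondrial genes (-0.66, adjusted p = 0.057). Of the 15 members with the E2F letters described above, 12 fell and 1 rose with HPA-12, and of the 27 tested members without them, 12 fell and 6 rose. With crenolanib 10 of 15 fell, against 13 of 27, and in the combination 8 of 15, against 12 of 27. Of all tested genes, 34.6%, 39.4% and 49.6% fell, so both combination shares lay around that of all genes. Median log2 fold changes with and without the letters were -0.41 and -0.17 with HPA-12 and -0.4 and -0.18 with crenolanib. In the combination they were -0.55 and -0.49. These shares and medians were not tested.

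**Figure D4:**
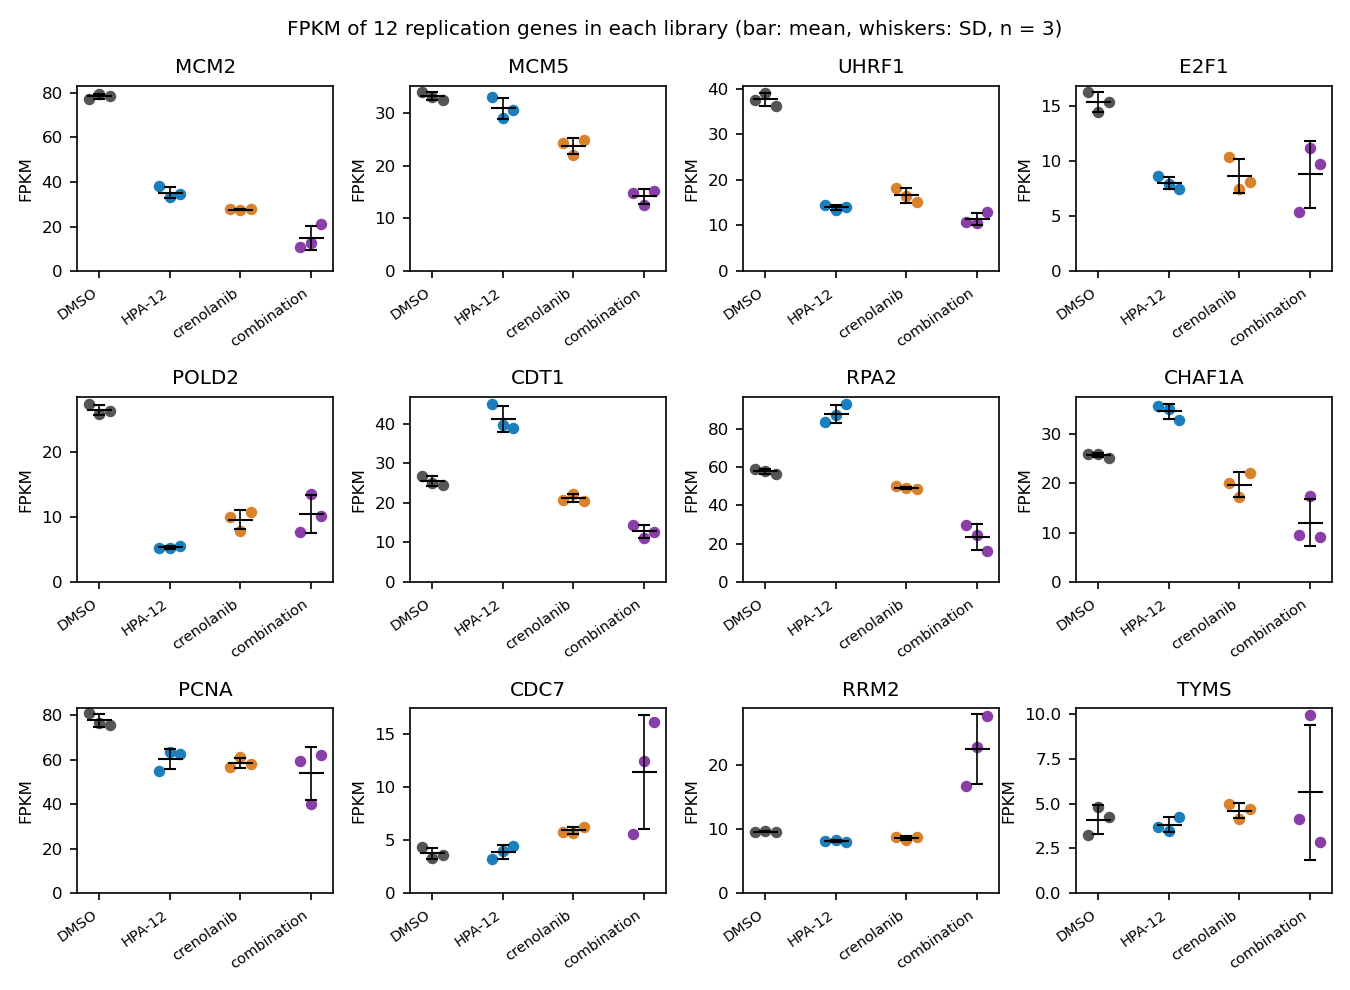
FPKM of 12 members in each library (points), with the mean and SD of the 3 libraries of each group; each panel starts at 0 and has its own scale. MCM2 and UHRF1 lie lower in every treated group, CDT1, RPA2 and CHAF1A lie above DMSO only with HPA-12, and RRM2 and CDC7 have their highest mean in the combination.

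The 2 compounds alone were compared with each other directly. Between crenolanib and HPA-12, 13 members were lower with crenolanib and 12 higher, where 35.1% of all genes were lower and 29% higher, and the medians were -0.04 for members and -0.05 for all genes. CDT1 (log2 fold change -0.93, SE 0.07, adjusted p = 2.6e-06), RPA2 (log2 fold change -0.82, SE 0.05, adjusted p = 7.5e-07) and CHAF1A (log2 fold change -0.78, SE 0.09, adjusted p = 3.3e-05) were lower with crenolanib, followed by RFC2, RPA1 and MCM5. MCM10 (log2 fold change 0.84, SE 0.11, adjusted p = 9.3e-05) and POLD2 (log2 fold change 0.73, SE 0.11, adjusted p = 2.8e-04) were higher with crenolanib, followed by DBF4, POLE2, DTL and CDC7. MCM2 was slightly lower with crenolanib (log2 fold change -0.34, SE 0.06, adjusted p = 0.00101), whereas E2F1 (log2 fold change 0.09, SE 0.12, adjusted p = 0.507) and PCNA (log2 fold change -0.04, SE 0.06, adjusted p = 0.621) did not differ beyond the spread. With all 12 libraries in 1 fit 9 were lower and 7 higher, and the calls of MCM2, DBF4 and CDC7 ended (adjusted p of 0.152, 0.19 and 0.158).

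Against crenolanib alone, the combination lowered 15 members and raised 5, where 46.9% of all genes were lower and 6.74% higher. The median member changed by -0.09 and the median gene by -0.63. The largest falls were ORC2 (log2 fold change -1.14, SE 0.27, adjusted p = 0.00968), RPA2 (log2 fold change -1.07, SE 0.2, adjusted p = 0.00389), POLD3, FEN1, MCM4 (log2 fold change -0.93, SE 0.14, adjusted p = 0.00152) and MCM2 (log2 fold change -0.92, SE 0.23, adjusted p = 0.0126). RRM2 (log2 fold change 1.26, SE 0.19, adjusted p = 0.00139), RPA3, TIMELESS (log2 fold change 0.69, SE 0.15, adjusted p = 0.00736), POLE and MCM7 (log2 fold change 0.38, SE 0.12, adjusted p = 0.0322) were the 5 that rose. The number lowered was 8, 6 and 9, and the number raised 2, 2 and 3, without crenolanib library 1, 2 or 3 in turn. The calls of POLD3, FEN1, POLE and MCM7 were lost without each of these libraries (adjusted p between 0.0593 and 0.125), that of RPA3 without library 1 or 2 (0.0614 and 0.0796), that of MCM7 also without combination library 1 or 3 (0.0683 and 0.0703) and that of FEN1 also without combination library 3 (0.0749). With median ratios none was lower and 13 were higher (limma, the members' median then being 0.43), and MCM2 was at -0.27 (adjusted p = 0.458), ORC2 at -0.63 (0.16), RPA2 at -0.41 (0.182) and CDT1 at -0.04 (0.839). With all 12 libraries in 1 fit the number raised was 8.

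Against HPA-12 alone, the combination lowered 17 members and raised 10, where 50.2% of all genes were lower and 11.8% higher. The median member changed by -0.17 and the median gene by -0.64. RPA2 (log2 fold change -1.9, SE 0.2, adjusted p = 2.4e-04), CDT1 (log2 fold change -1.62, SE 0.13, adjusted p = 6.0e-05), CHAF1A (log2 fold change -1.5, SE 0.23, adjusted p = 0.00129), ORC2, MCM2 (log2 fold change -1.25, SE 0.23, adjusted p = 0.00305) and POLD3 fell most. RRM2 (log2 fold change 1.33, SE 0.18, adjusted p = 7.5e-04), CDC7, POLE2 (log2 fold change 1.01, SE 0.21, adjusted p = 0.00532), POLD2, RPA3 and MCM10 rose most. The number raised was 3, 4 and 5 without HPA-12 library 1, 2 or 3 in turn. MCM10 lost its call without each of them (0.72, 0.81 and 0.72, with adjusted p of 0.0933, 0.0688 and 0.0976), CDC7 without HPA-12 library 1 or 2 or combination library 2 (0.0529 to 0.0651), and RPA3 without HPA-12 library 1 or 3 (0.0609 and 0.0572). With median ratios 4 were lower and 17 higher, the members' median was 0.43, and the falls of RPA2, CDT1 and CHAF1A passed, while MCM2 (-0.56, adjusted p = 0.108), ORC2 (-0.83, 0.0509) and POLD3 (-0.58, 0.181) did not.

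Whether HPA-12 had the same effect with and without crenolanib was asked of all 12 libraries with an interaction term, the change from crenolanib to the combination minus the change from DMSO to HPA-12. Of the 48 members, 10 passed with a negative and 14 with a positive term, where 50% of all genes were negative and 15.4% positive. The median term of the members was 0.24, and that of all genes was -0.65. With group-wise array weights, which let the combination libraries vary more, 9 were negative and 13 positive. With median ratios the numbers were 3 and 26.

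POLD2 had the largest positive term, 2.21 (SE 0.23, adjusted p = 6.6e-06). It fell by 2.11 with HPA-12 alone, whereas crenolanib, at 9.56 ± 1.47 FPKM, and the combination, at 10.5 ± 2.87, overlapped. RRM2 came next, with a term of 1.48 (SE 0.2, adjusted p = 4.9e-05): it fell slightly with HPA-12 alone and rose with HPA-12 on top of crenolanib. CDC45, POLE2 and MCM7 followed, each lowered by HPA-12 alone, of which MCM7 rose on top of crenolanib. The largest negative terms belonged to RPA2 (-1.67), ORC2 (-1.54), POLD3 (-1.38), CDT1 (-1.36) and CHAF1A (-1.13). As deposited, HPA-12 alone raised each of these, and HPA-12 on top of crenolanib lowered each. With median ratios the terms of POLD3 (-0.8, adjusted p = 0.0739) and CHAF1A (-0.46, 0.178) did not pass, and none of the 5 passed as lower on top of crenolanib (adjusted p of 0.16 to 0.852). For MCM2 the term did not pass (0.22, SE 0.25, adjusted p = 0.455), which does not show that the effects were equal. It fell by 1.14 without and by 0.92 with crenolanib. With median ratios its term was 0.9 and passed (adjusted p = 0.0143).

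**Figure D5:**
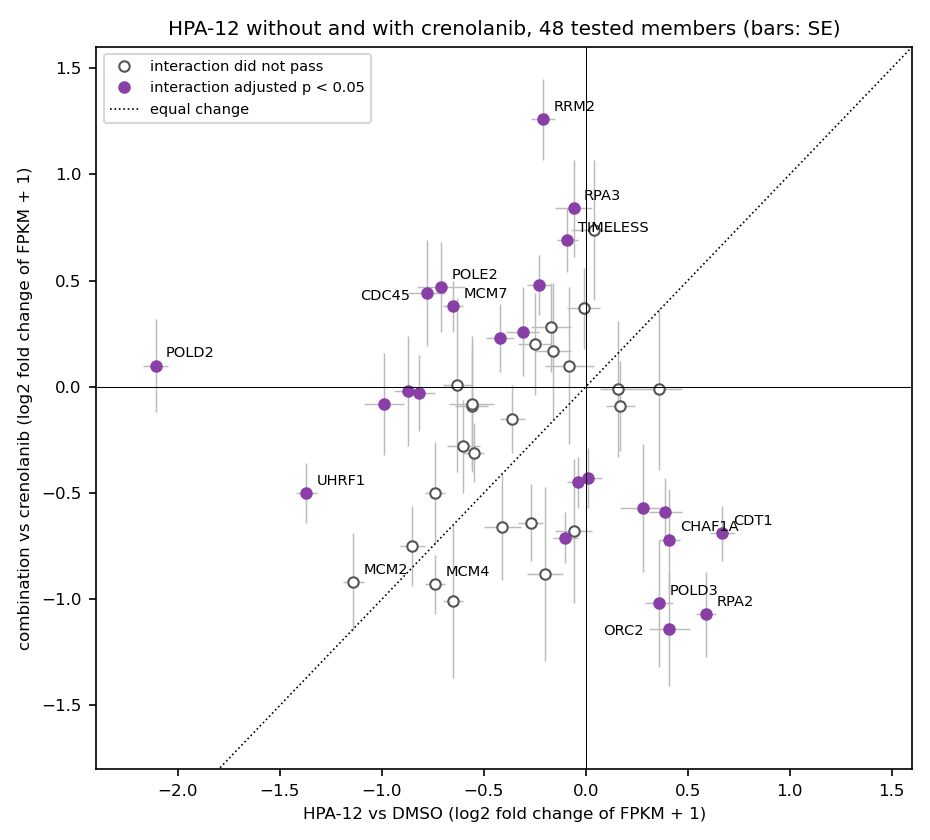
Log2 fold change of FPKM + 1 of the 48 tested members for HPA-12 vs DMSO (x axis) and for combination vs crenolanib (y axis), with SE; the 2 axes share no library, filled points had an interaction adjusted p below 0.05, and the dotted line marks equal change. RPA2, CDT1, ORC2, POLD3 and CHAF1A lie at lower right, RRM2, CDC45, POLE2 and MCM7 at upper left, and MCM2 and MCM4 near the line.

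Other genes of replication and S phase, 60 in a second list of which 57 were tested were compared in the same way. With HPA-12, 22 (38.6%) fell and 14 (24.6%) rose, against 34.6% and 43.2% of all genes, and the median was -0.02, against 0.09. The smallest p-values were those of SSRP1, a subunit of the histone chaperone FACT (log2 fold change -1.46, SE 0.05, adjusted p = 2.0e-10), CCNE1, the cyclin E gene (log2 fold change -1.89, SE 0.08, adjusted p = 5.2e-10), CDC25A, the phosphatase that activates CDK2 (log2 fold change -1.64, SE 0.07, adjusted p = 9.1e-10), and PARP1 (log2 fold change -0.99, SE 0.05, adjusted p = 6.1e-09). With crenolanib 21 (36.8%) fell and 22 (38.6%) rose, against 39.4% and 36.1% of all genes, and both medians were -0.04. RRM2B, the p53-induced small subunit of ribonucleotide reductase, rose (log2 fold change 1.52, SE 0.06, adjusted p = 3.4e-08), as did TOP2A, the topoisomerase that untangles DNA (log2 fold change 1.26, SE 0.07, adjusted p = 2.2e-07). SSRP1 (log2 fold change -1.15, SE 0.05, adjusted p = 9.2e-08) and DNMT1, the maintenance methyltransferase that UHRF1 recruits (log2 fold change -0.91, SE 0.05, adjusted p = 4.1e-07), fell.

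In the combination, 19 of the 57 (33.3%) were lower than in DMSO and 10 (17.5%) higher, against 49.6% and 12.3% of all genes, with a median of -0.24, against -0.62. PARP1 (log2 fold change -1.77, SE 0.11, adjusted p = 3.2e-05), SAMHD1, which breaks down deoxynucleotides (log2 fold change -1.76, SE 0.12, adjusted p = 4.3e-05), POLE3 (log2 fold change -1.51, SE 0.11, adjusted p = 5.7e-05) and SLBP, which binds histone messages (log2 fold change -1.37, SE 0.1, adjusted p = 6.0e-05), had the smallest p-values. Against crenolanib, 17 (29.8%) were lower and 7 (12.3%) higher, where 46.9% of all genes were lower and 6.74% higher. RRM2B (log2 fold change -1.91, SE 0.13, limma adjusted p = 6.6e-05) fell where its paralogue RRM2 rose, and SAMHD1, SLBP and SUPT16H also fell. Against HPA-12, 15 (26.3%) were lower and 8 (14%) higher, where 50.2% of all genes were lower and 11.8% higher. E2F2, a further activating E2F, was higher (log2 fold change 2.05, SE 0.17, limma adjusted p = 7.1e-05), and SAMHD1, POLE3 and RRM2B were lower. Between the single compounds 9 (15.8%) were lower with crenolanib and 26 (45.6%) higher, where 35.1% of all genes were lower and 29% higher. Among those higher were TOP1, USP1 and SUPT16H, while POLD4 was lower. The interaction was negative for 23 (40.4%) and positive for 14 (24.6%), where 50% of all genes were negative and 15.4% positive. RRM2B was at -3.33, SAMHD1 at -1.53, SSRP1 at 1.72 and RNASEH2C at 1.94.

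Mitotic genes gave a further reference for dividing cells. Of 17 tested, 3 (17.6%) fell and 11 (64.7%) rose with HPA-12, against 34.6% and 43.2% of all genes (median 0.19, against 0.09). With crenolanib 8 (47.1%) fell and 7 (41.2%) rose, against 39.4% and 36.1% (median -0.27, against -0.04). In the combination 6 (35.3%) were lower and 3 (17.6%) higher, against 49.6% and 12.3% (median -0.1, against -0.62). Their summed FPKM was between 233 and 236 in DMSO, 248 and 255 with HPA-12, 189 and 197 with crenolanib and 155 and 209 in the combination. With HPA-12 the summed mitotic level was thus above DMSO in each library while the summed level of the 49 members was below it in each library.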

How the data were processed

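RNA of MV-4-11 cells was measured in 12 libraries, 3 in each of 4 groups, grouped by their titles. The authors deposited a single table of FPKM (fragments scaled by gene length and library total), per the file headers. Neither aligner, counter, build nor annotation is given in the sources used here. By name, all 12 columns matched a library, and 0 were left over. Symbols were found for 20011 of 20036 identifiers.

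Whole reads were recovered by finding, for each library and gene, the depth and length at which FPKM values became whole numbers of reads (within 0.02 of a read). This held in all 12 libraries for 15563 of 15576 genes (99.9%), including the 49 members, and gave the depths in the text. How the totals were made affects every value: FPKM is a share of its library, so a gene falls when others take more of the total.

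Log2 of FPKM + 1 was tested with limma 3.58.1 in R 4.3.3 (statmod 1.5.0; mean-variance trend, robust moderation, two-sided, Benjamini-Hochberg over 11149 genes, threshold 0.05). Genes needed at least 1 FPKM in at least 3 libraries. Each comparison was fitted on its 6 libraries, the interaction on 12. Exact permutation of 3 against 3 libraries cannot go below p = 0.1, so it was not used. The members and lists were chosen with earlier results of these data known. Fold changes with errors are given for a panel of 12 members and, per comparison, for up to 6 that fell most and 6 that rose most (5 for the interaction) among those that passed with a mean of at least 2 FPKM, and for the 4 smallest p-values of the second list. Alternatives were a pseudocount of 0.1, no filter, 2 other scalings, all libraries in 1 fit (interaction: array weights), a replicate block and leaving out each library. A test of the recovered reads with voom was chosen after seeing the data. The procedure was also run on simulated libraries with independent noise of the spread of each group. These did not copy the low read numbers of the combination, and no result here rests on them. Promoter sequences are from RefSeq (GRCh38.p14).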

Additional observations from a re-analysis of the deposited data

Results flagged for a closer look

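The interaction test over all 12 libraries (limma, adjusted p below 0.05) asked which members responded differently to HPA-12 with and without crenolanib. The term is the change from crenolanib to the combination less the change from DMSO to HPA-12, on the log2 scale. It passed for 24 members, 10 of them negative and 14 positive. Those from the panel of 12 and those with the 5 largest terms each way come first. Positive terms were found for POLD2 (2.21), RRM2 (1.48), CDC45 (1.22), POLE2 (1.19), MCM7 (1.03), MCM10 (0.91), E2F1 (0.85) and CDC6 (0.79). Negative terms were found for RPA2 (-1.67), ORC2 (-1.54), POLD3 (-1.38), CDT1 (-1.36), CHAF1A (-1.13) and MCM5 (-0.6). The other positive terms that passed were those of RPA3 (0.9), UHRF1 (0.86), TIMELESS (0.77), POLE (0.71), LIG1 (0.66) and POLA1 (0.57). The other negative terms were those of RFC5 (-0.98), PRIM2 (-0.85), RRM1 (-0.44) and RPA1 (-0.4). The median gene had a term of -0.65, so the term of MCM5 was that of the median gene. With median ratios POLD3 (-0.8, adjusted p = 0.0739) and CHAF1A (-0.46, 0.178) did not pass, nor did MCM5, PRIM2, RFC5, RPA1 and RRM1. E2F1 did not pass without DMSO library 1, HPA-12 library 3 or crenolanib library 2 (0.8, 0.8 and 0.76, with adjusted p of 0.0509, 0.0502 and 0.0563). The combination libraries, on which every term rests, also had 62.2% of their FPKM in mitochondrially encoded genes and the widest spread between libraries of the 4 groups, and the part of these in the terms was not tested.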

How the results depend on the processing

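Median-ratio scaling changed most in the comparisons that use the combination. Members called lower went from 25 to 9 in combination vs DMSO, from 15 to 0 in combination vs crenolanib (limma; 13 were then higher) and from 17 to 4 in combination vs HPA-12, and the medians of the last 2 turned from -0.09 and -0.17 to 0.43. PCNA in combination vs DMSO became 0.14, and the interaction of MCM5 became 0.07 (adjusted p = 0.675). Summed FPKM of the members became 790, 607, 535 and 736 in DMSO, HPA-12, crenolanib and the combination, and 832, 703 and 613 in the first 3 when the total left out mitochondrial genes. This follows from dividing by another total. With all 12 libraries in 1 fit, members lower with HPA-12 went from 26 to 17 and members higher from 9 to 3, members higher with crenolanib from 5 to 0, and members higher with crenolanib than with HPA-12 from 12 to 7, since each gene then carries the spread of the combination libraries; members higher in the combination went from 5 to 8 against DMSO and from 5 to 8 against crenolanib. That fit called 5652 genes for HPA-12 vs DMSO, against 8672, and 6274 for crenolanib vs DMSO, against 8415; crenolanib vs HPA-12 gave 4589, against 7147.

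Leaving out 1 library at a time gave 25 to 27 members lower in HPA-12 vs DMSO, 25 to 27 in crenolanib vs DMSO, 16 to 28 in combination vs DMSO, 6 to 16 in combination vs crenolanib, 12 to 19 in combination vs HPA-12 and 10 to 13 in crenolanib vs HPA-12, and 21 to 29 members with an interaction; the cause was not tested. A pseudocount of 0.1, no filter, voom and, for the interaction, array weights kept the numbers of members lower within 1.5 times. Single calls still changed without the filter. Among those that ended were PCNA, E2F1, CDC7 and CLSPN in combination vs DMSO (limma adjusted p of 0.0545 to 0.0783). POLD3, FEN1 and MCM7 in combination vs crenolanib also ended (0.058 to 0.117), while RRM2 in crenolanib vs DMSO gained a call (0.0449). Of the values of named members under the alternatives, 1786 kept their side of the threshold, 28 of them with the opposite sign (all not called as reported), 114 lost and 19 gained a call, and 2 called values reversed. Of all 31 values with the opposite sign, 8 were found with median ratios, among them MCM10 in combination vs DMSO (-0.24 to 0.32). Deviations of same-numbered libraries were correlated at only -0.03 to 0.07, yet 9 of 12 libraries lay closest to their own number. A weak link between same-numbered libraries is thus possible and was not tested. A replicate block gave 26, 27, 23, 14, 15 and 12 members lower in the 6 comparisons, in the order above, and 24 with an interaction. The median member had 120.7 reads per library in the combination, where its variance over mean was 13.12, against 1 for counting error; the part of depth in that spread was not tested.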
